A study of Arabidopsis thaliana with 4 samples.

Results

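The early response of Arabidopsis thaliana to gamma-rays is described here from the 1 array of wild type taken 6 h after 100 Gy, 1 of 4 arrays in the series. The array was chosen by its label, not by its values. RNA of wild-type plants of the ecotype Nossen, 4 weeks old, frozen 6 h after 100 Gy given at 300 Gy/h, carried the red dye. RNA of non-irradiated wild type of the same ecotype and age carried the green dye. The other 3 arrays, set beside it for single genes and for the size of the 12 h response, held wild type 12 h after the same dose, the mutant fas1-2 and the mutant fas2-2, each against wild type of the same age. Both mutants are affected in chromatin assembly factor 1, a histone chaperone, fas1-2 in its p150 subunit and fas2-2 in its p60 subunit. All plants grew on solidified MS medium, and no array had the dyes swapped. The sample labels name rosette leaves, while the design text names shoots of seedlings with cotyledons and hypocotyls and no roots. How many plants were pooled, at what time of day they were taken and whether arrays shared a control RNA is not stated.

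Each value is a log2 ratio of irradiated over non-irradiated plants: 1 is 2-fold higher and -1 is 2-fold lower. The labels give the dyes but not the log base or the direction of the ratio; both were read as those of the scanner software. With the opposite direction every sign below would turn, and the counts of higher and lower genes would change places. The comparison had 1 array and no replicate, so no test was possible, and values are given with their rank among the 9253 genes measured by a probe with a single gene name. The spots of 48 transcripts present more than once on the array differed with a pooled SD of 0.25 on the log2 scale, a median SD of 0.10 and a largest SD of 0.89. For 2 of the 48 the spots lay 2-fold or more apart. This is the measurement error within the array only, and it leaves out the difference between plants and between dyes. Spot brightness was not used here, so dim and bright genes could not be told apart.

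Plants answer breaks in their DNA through the kinases ATM and ATR and the transcription factor SOG1, a NAC protein that switches on repair genes and inhibitors of cyclin-dependent kinases. Cells in G2 then stop short of mitosis, and genes of mitosis are held down by MYB repressors. In leaves, where most cells have left the cycle, cells may turn to endoreduplication, in which DNA is copied without division. Gamma-rays also split water into reactive oxygen species, which oxidise cell components. Methionine sulfoxide reductases repair oxidised methionine, and glutaredoxins and glutathione transferases are further enzymes of redox balance and detoxification.

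At 6 h, 174 genes (1.88%) stood 2-fold or more above non-irradiated plants and 93 (1.01%) as far below them. The lower and upper quartiles of all genes were -0.13 and 0.15. The median was 0.0002, and 50.1% of these genes lay above 0. Over all features of the array, including those without a single gene name, 493 were 2-fold higher and 722 lower, so the excess of higher values holds for the named genes only. On the 12 h array the same threshold took in 84 higher (0.908%) and 69 lower genes (0.746%). At 3-fold there were 38 higher and 21 lower genes, at 4-fold 16 and 9, and at 8-fold 4 and 2. The threshold is a plain one: AT1G56100 and AT2G25510 lay just inside it at 1.0032 each, and AT5G47070 at 0.9999 and AT1G78620 at 0.9966 just short of it. At the other end AT2G28960 (-1.0032) and AT4G29030 (-1.0065) lay just inside, and ATLP-1 (AT1G18250) and scpl37 (AT3G52010), both at -0.9999, just outside. These genes differ by far less than the spread between repeated spots.

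**Figure D1:**
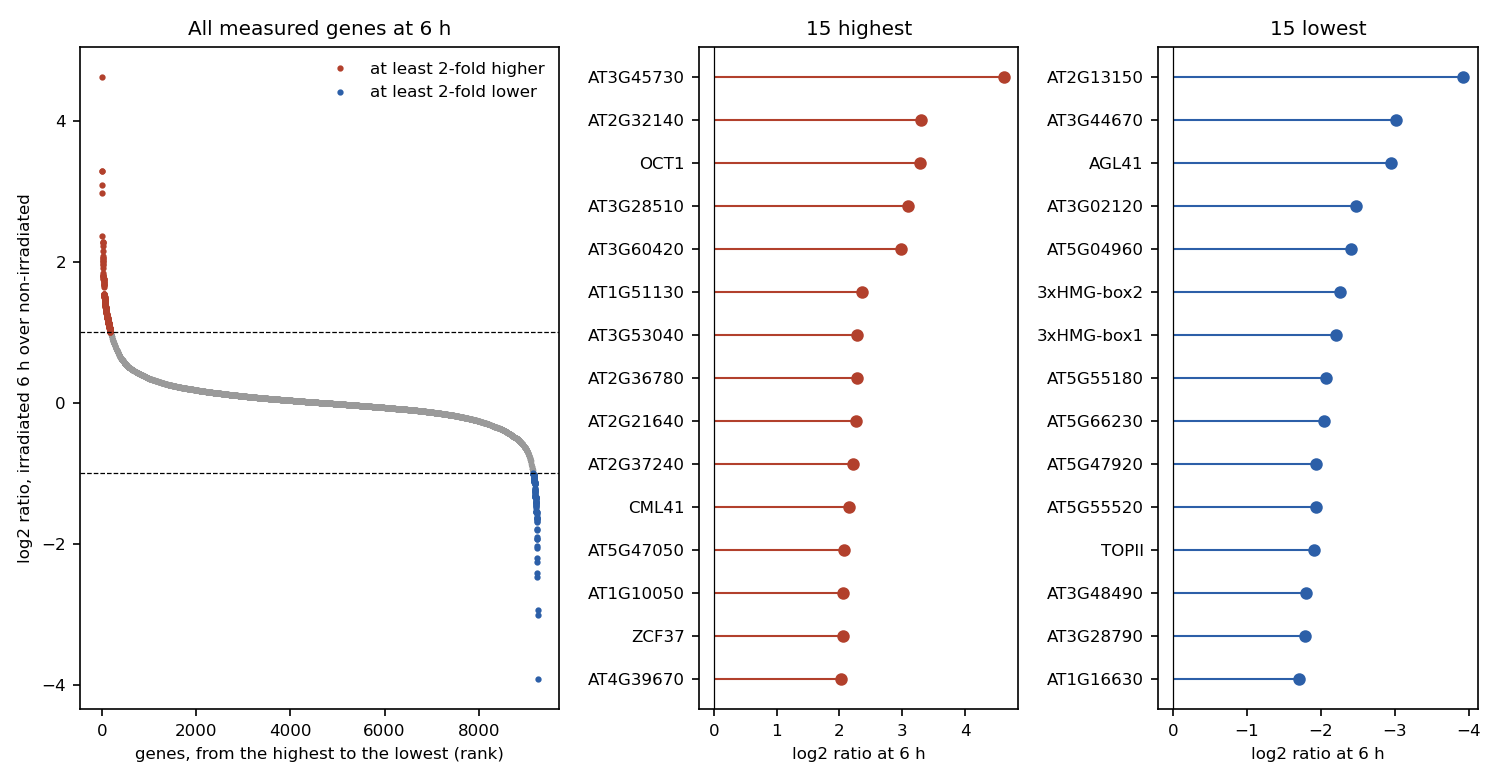
Log2 ratio of irradiated over non-irradiated wild type at 6 h for the 9253 genes, from the highest to the lowest (left), with the 15 highest (middle) and the 15 lowest (right) by name; dashed lines mark 2-fold. AT3G45730 at 4.62 and AT2G13150 at -3.92 stand apart from the next genes.

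The highest gene was AT3G45730 at 4.62, a 24.5-fold difference, and it stood 1.33 above the next. AT2G32140 followed at 3.29, OCT1 (AT1G73220) at 3.28, AT3G28510 at 3.08 and AT3G60420 at 2.98. OCT1 is an organic cation and carnitine transporter. A step of 0.61 separates these from the sixth gene, AT1G51130 at 2.37, and from there the order is dense. The next 9 were AT3G53040, AT2G36780, AT2G21640, AT2G37240, CML41, AT5G47050, AT1G10050, ZCF37 and AT4G39670, between 2.28 and 2.02, spaced more closely than repeated spots differ. Of the 30 highest genes 7 have a symbol in the current gene list; the rest are known here by locus, and beyond the list that AT2G21640 belongs to, no function is given for them.

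Among the 5 highest genes only AT3G45730 was also 2-fold higher at 12 h, at 4.05, and it was at 2.06 in fas1-2 and 1.33 in fas2-2. AT2G32140 was at 0.92 at 12 h, 0.02 in fas1-2 and 0.35 in fas2-2. OCT1 was at -1.26 at 12 h, 0.89 in fas1-2 and 1.48 in fas2-2. AT3G28510 was below control on all 3 other arrays, at -1.66 at 12 h, -0.88 in fas1-2 and -1.55 in fas2-2. AT3G60420 was at -0.14 at 12 h, -0.3 in fas1-2 and 0.14 in fas2-2. Since these genes were taken for being extreme at 6 h, lower values elsewhere are to be looked for in any case, and nothing is read from them.

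Genes of cell division lay on the low side. All 7 measured genes of the 26 on a list of G2 and mitosis lay below 0, with a median of -0.92, and 3 of the 7 were at least 2-fold lower against 1.01% of all genes. The members were chosen with earlier results of these data known, and so the count is a description. KINESIN-12B (AT3G23670), which moves on the microtubules of the phragmoplast as the new cell wall forms, stood at -1.44. The Aurora kinase AUR2 (AT2G25880), which acts at the spindle, stood at -1.42, while its relatives AUR1 (AT4G32830) and AUR3 (AT2G45490) were at -0.28 and -0.20, about as far from 0 as the pooled spot SD. ATSMC2 (AT3G47460), a condensin subunit that compacts chromosomes, stood at -1.06. HTR12 (AT1G01370), the centromeric histone H3, stood at -0.92, and BUBR1 (AT2G33560), of the spindle checkpoint, at -0.41.

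Both measured 3xHMG-box genes were among the 10 lowest of all. Their proteins carry HMG boxes, which bind and bend DNA, and sit on condensed mitotic chromosomes. 3xHMG-box2 (AT4G23800) stood at -2.26 at 6 h, -0.37 at 12 h, 0.14 in fas1-2 and 0.44 in fas2-2. 3xHMG-box1 (AT4G11080) stood at -2.20 at 6 h, -0.39 at 12 h, -0.42 in fas1-2 and 0.27 in fas2-2. The 2 genes thus differed at 6 h by less than repeated spots do. They ranked the sixth and the seventh from the bottom; whether one transcript bound both probes was not tested. TOPII (AT3G23890), the topoisomerase that untangles sister chromatids, was the twelfth from the bottom at -1.91, against 0.03 at 12 h, 0.02 in fas1-2 and 0.54 in fas2-2. With the 3xHMG-box genes and TOPII added, a choice made after their values were seen, 10 of 10 division genes lay below 0, with a median of -1.24. Of these, 6 were past 2-fold, against 1.01% of all genes. The added genes were already known to be low, so this count and median follow in part from the choice. In such samples of whole leaves or shoots, fewer dividing cells and less RNA in each cannot be told apart.

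Replication genes were represented by 3 of the 15 on their list, all below 0. Beside TOPII these were ICU2 (AT5G67100), the catalytic subunit of DNA polymerase alpha, at -0.51 and the helicase subunit MCM7 (AT4G02060, symbol PRL) at -0.49. ATIM (AT5G52910), the plant relative of TIMELESS, which guards replication forks, stood at -0.87 at 6 h and -0.14 at 12 h. All 3 lie farther from 0 than the pooled spot SD.

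Most histones are made in bulk when DNA is copied, while some, such as H3.3, are also placed outside replication. The earlier histone list had 7 measured genes, 6 of them below 0, with a median of -0.52. Of the 7, 1 was past 2-fold lower, against 1.01% of all genes. In a wider group of 14, chosen after the values were seen, 11 lay below 0, and the 3 above it were both H3.3 genes and the linker histone gene HON4 (AT3G18035; 0.03). The genes AT5G59690, AT1G07820 and AT3G53730, known to encode H4 although the gene list used here does not name them, stood at -1.55, -1.02 and -0.50. Among the H2B genes, HTB2 (AT5G22880) stood at -1.32 and HTB4 (AT5G59910), HTB1 (AT1G07790) and HTB11 (AT3G46030) at -0.57, -0.52 and -0.35. All 4 H2B genes thus lay below 0, HTB2 well apart from the others. The H3.1 genes AT5G10400 and AT5G65360 stood at -0.95 and -0.68, against 0.24 each for the H3.3 genes AT4G40040 and AT5G10980. The H3.3 values were about as far from control as the pooled spot SD. Whether one transcript bound the probes of several histone genes was not tested. The linker histone HIS1-3 (AT2G18050), known as a drought-responsive H1, was at -0.23.

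**Figure D2:**
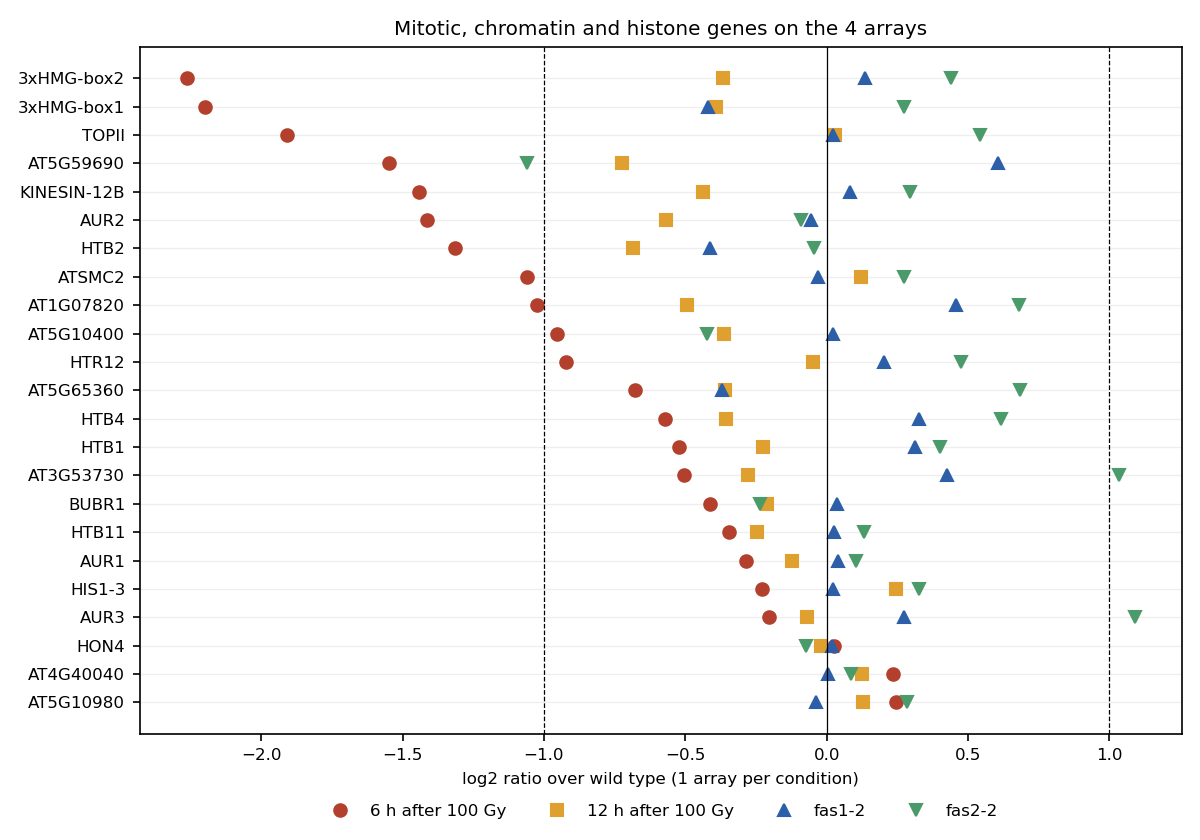
Log2 ratio over wild type of the mitotic, chromatin and histone genes, in the order of their values at 6 h; each symbol is 1 array (6 h or 12 h after 100 Gy, fas1-2 or fas2-2), and dashed lines mark 2-fold. At 6 h the genes from 3xHMG-box2 at -2.26 to AUR3 at -0.20 lie below 0; HON4 and the H3.3 genes lie above it.

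Repair and damage signalling could be followed through few genes. Of 44 loci on the damage list, which holds the best known targets of SOG1, 3 were measured. SIM (AT5G04470), which blocks mitotic CDK complexes and so favours endoreduplication, stood at 1.17 at 6 h, 0.87 at 12 h, -0.19 in fas1-2 and -0.30 in fas2-2. It ranked 118 from the top and was the only CDK inhibitor measured of 12 listed. LIG4 (AT5G57160, symbol ATLIG4), the ligase of non-homologous end joining, stood at 0.48 at 6 h, 0.28 at 12 h, -0.22 in fas1-2 and -0.28 in fas2-2. POLH (AT5G44740), a polymerase that copies past damaged bases, was at 0.06. Both SIM and LIG4 were above control at both times after irradiation and below it in both mutants. Their mutant values, and LIG4 at 12 h, were about as far from 0 as repeated spots differ on those arrays (pooled SD 0.24 to 0.28). POLH did not share this order, at 0.31 at 12 h, 0.10 in fas1-2 and -0.02 in fas2-2, so nothing is read from it. Of 10 genes with a repair symbol, LIG4 and POLH included, 4 lay above 0 and 6 below, none past 2-fold. This group was chosen after the values were seen, and repair genes known here by locus only could be missed by it. RAD5 (AT5G22750), of damage tolerance, stood at 0.20, the checkpoint clamp gene RAD9 (AT3G05480) at -0.02, RAD4 (AT5G16630), of nucleotide excision repair, at -0.18, and DRT100 (AT3G12610) at -0.61. The median of the 10 was -0.01, that of all genes 0.0002.

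Among the highest genes with a symbol were some of defence and some of redox enzymes. GRX480 (AT1G28480), a glutaredoxin that binds TGA transcription factors in salicylate signalling, stood at 1.80 at 6 h, -0.38 at 12 h, -0.19 in fas1-2 and 0.24 in fas2-2. MSRB8 (AT4G21840), which repairs oxidised methionine, stood at 1.96 at 6 h, -0.12 at 12 h, -0.47 in fas1-2 and 0.18 in fas2-2. On each of the other 3 arrays both genes lay within 0.5 of control. The neighbouring MSRB9 (AT4G21850) was at 0.99, and MSRB3 (AT4G04800) at 0.51. The family was split, since MSRB4 (AT4G04810), MSRB5 (AT4G04830) and MSRB6 (AT4G04840) lay at -0.56, -0.68 and -0.51. Of 15 genes with a glutaredoxin, glyoxalase or methionine sulfoxide reductase symbol, a group chosen after the values were seen, 3 were at least 2-fold higher, against 1.88% of all genes, and none lower, with a median of 0.04. GLX2-4 (AT1G06130), named as a glyoxalase, was the third at 1.22.

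The WRKY family was spread on both sides of control. WRKY53 (AT4G23810), a transcription factor of senescence and defence, was at 1.35 and WRKY6 (AT1G62300) at 0.89, whereas WRKY42 (AT4G04450) was at -1.15. The other 7 measured WRKY genes lay between -0.05 and 0.32. The chitinase gene CHI (AT2G43570) was at 1.68, the only measured gene of 19 on the defence and salicylate list. Further genes were picked here from the high end by their values. STZ (AT1G27730), a zinc finger repressor induced by many stresses, was at 1.16. The calmodulin-like genes CML41 (AT3G50770) and CML38 (AT1G76650), calcium sensors, stood at 2.15 and 1.26, and the remaining 5 of this family between -0.03 and 0.21. PXMT1 (AT1G66700) and FAMT (AT3G44860), methyltransferases of small carboxylic acids and related compounds, were at 1.32 and 1.14.

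Enzymes of detoxification stood high in single members only. Of 45 glucosyltransferase genes with a UGT symbol, 4 were at least 2-fold higher, against 1.88% of all genes, and none lower, while the median of the 45 was 0.01. The 4 were UGT73B3 (AT4G34131; 1.31), UGT73B2 (AT4G34135; 1.27), UGT76B1 (AT3G11340; 1.09), which glucosylates salicylate and isoleucic acid, and UGT87A2 (AT2G30140; 1.06). At 12 h these 4 stood at 0.02, -0.04, -0.43 and -0.14. Of 241 cytochrome P450 genes matched by name 18 were measured, most of them CYP71B genes. Of these, 2 were at least 2-fold higher, against 1.88% of all genes: CYP71B23 (AT3G26210) at 1.75 and CYP71B5 (AT3G53280) at 1.28. The others lay between -0.57 and 0.40. Among 13 glutathione transferase genes measured of 49 matched, GSTF3 (AT2G02930) stood at 1.36 and GSTU20 (AT1G78370) at -1.35, and the other 11 between -0.55 and 0.35.

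Genes of protein folding and turnover were followed in several small groups. BIP1 (AT5G28540), the Hsp70 chaperone of the endoplasmic reticulum, stood at 1.17 at 6 h, 0.40 at 12 h, 0.03 in fas1-2 and 0.33 in fas2-2. Its co-chaperone ATERDJ3B (AT3G62600) was at 0.83 and BZIP60 (AT1G42990), a transcription factor of the unfolded protein response, at 0.64. Of 7 genes of folding in this compartment, a group chosen after the values were seen, 6 lay above 0 with a median of 0.20. Both measured proteasome genes of 62 matched, RPN12a (AT1G64520) and RPN12b (AT5G42040), lay at 0.60 and 0.77. All 10 measured autophagy genes, of 40 matched by name, lay above 0, from 0.16 for ATG8F (AT4G16520) to 1.21 for ATG8E (AT2G45170). All but ATG3 belong to the single family ATG8, so they do not stand for the whole pathway. Whether one transcript bound several of their probes was not tested. VPS60.1 (AT3G10640), of the ESCRT machinery that sorts membrane proteins for degradation, was at 1.02, and 8 of 10 genes with a VPS symbol lay above 0, the lowest being VPS2.2 at -0.73. The 2 measured heat shock genes of 57 matched, ATHSP22.0 (AT4G10250) and HSP93-III (AT3G48870), were at 0.02 and 0.24. On the list of mitochondrial stress 4 of 10 were measured, all above 0 and 2 past 2-fold, against 1.88% of all genes. These were AT2G21640 at 2.27 and AT5G51440 at 1.07, with AT2G41380 at 0.57 and NDB2 (AT4G05020), an alternative NADH dehydrogenase, at 0.49. The list was fixed with earlier results of these data known, and so its count is a description.

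**Figure D3:**
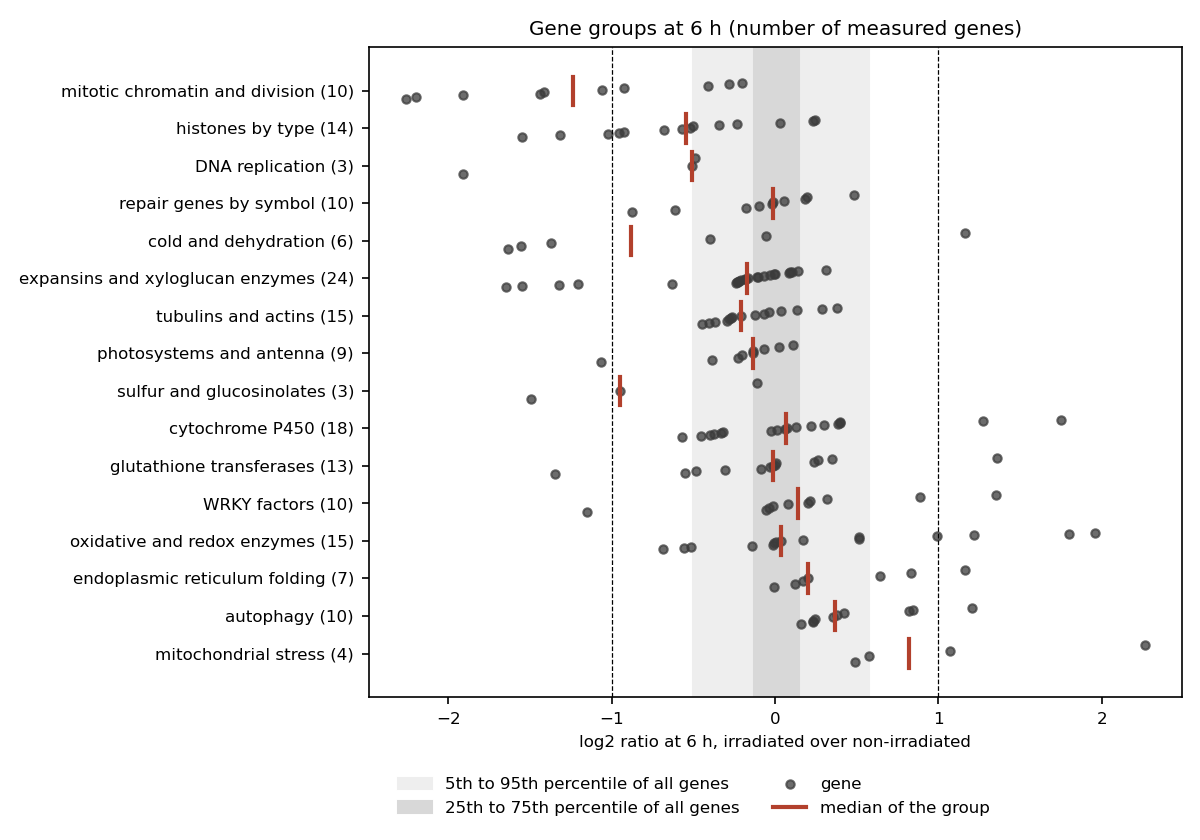
Log2 ratio at 6 h of every measured gene (points) of 16 gene groups, with the median of each group (red bar); grey bands hold the middle 50% and 90% of all genes, and dashed lines mark 2-fold. Mitotic genes (median -1.24) and histones (median -0.55), both groups chosen after their values were seen as were the repair, redox and folding groups, lie to the left, autophagy (median 0.37) and mitochondrial stress (median 0.82) to the right, and most other groups spread around 0 with single genes far out. The earlier list of G2 and mitosis, not drawn, had a median of -0.92.

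Cell wall genes lay mostly below control. Expansins loosen the wall so that cells can grow, and xyloglucan enzymes cut and rejoin its chains. Of 24 such genes 19 lay below 0, 4 of them past 2-fold against 1.01% of all genes, and none was 2-fold higher. This group too was fixed with earlier results of these data known, and so the count is a description. EXLB1 (AT4G17030) stood at -1.64 at 6 h, -0.89 at 12 h, 1.45 in fas1-2 and 0.87 in fas2-2. EXPA8 (AT2G40610) stood at -1.55 at 6 h, -0.99 at 12 h, -0.20 in fas1-2 and -0.74 in fas2-2. EXPB3 (AT4G28250) and EXPA15 (AT2G03090) were at -1.33 and -1.21 at 6 h but at 0.02 and 0.09 at 12 h. The median of the 24 was -0.17, smaller in size than the pooled spot SD, against a lower quartile of -0.13 for all genes. The 4 named stood far below the rest. EXPA7 (AT1G12560), a root hair gene, was at -0.23.

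Cold and dehydration genes were split. The neighbours COR15B (AT2G42530) and COR15A (AT2G42540), whose chloroplast proteins protect membranes from freezing, stood at -1.63 and -1.56, and KIN2 (AT5G15970) at -1.37. COR47 (AT1G20440), a dehydrin, was at -0.40 and KIN1 (AT5G15960) at -0.05. STZ, on the same list, was the only one of the 6 above 0. In fas1-2 COR15B and COR15A were above wild type, at 1.89 and 1.1, and at 12 h near control, at 0.21 and -0.17. LEA4-5 (AT5G06760), a late embryogenesis protein that protects dry cells, was at -1.35, while M17 (AT2G41260), also of that kind, was at 1.21.

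Of 11 loci on a list of sulfur and glucosinolates 3 were measured. All 3 lay below 0, with 1 past 2-fold against 1.01% of all genes. Glucosinolates are the mustard oil precursors of this plant family, and these few genes do not stand for their whole pathway. AOP3 (AT4G03050), a dioxygenase that modifies their side chains, stood at -1.49 at 6 h, -0.15 at 12 h, -3.62 in fas1-2 and -2.76 in fas2-2. BCAT4 (AT3G19710), which starts the elongation of methionine for aliphatic glucosinolates, stood at -1.25 at 6 h, -0.09 at 12 h, 0.04 in fas1-2 and -0.91 in fas2-2. The ATP sulfurylase genes APS3 (AT4G14680) and APS4 (AT5G43780), which bring sulfate into metabolism, were at -0.95 and -0.11. BCAT4 was not on the list and was picked after its value was seen.

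Photosynthesis genes differed little. Of 9 genes 7 lay below 0 and 1 was past 2-fold, PSBW (AT2G30570), a small subunit of photosystem II, at -1.06 at 6 h, -0.76 at 12 h, -0.81 in fas1-2 and -0.90 in fas2-2. PSBW was thus low on every array. RCA (AT2G39730), rubisco activase and the only measured leaf marker of 4, was at -0.49. The list match by word also took in PSD (AT1G72560; 0.11), which is not a photosystem gene. The remaining lists of pathways held no gene past 2-fold: the 3 flavonoid genes lay between -0.61 and -0.01, the 11 auxin genes between -0.18 and 0.20, the 15 tubulins, actins and their folding partners between -0.45 and 0.38, and PDF1.2 (AT5G44420) and PR-1-LIKE (AT2G19990) of the jasmonate and ethylene list at -0.17 and 0.05. The clock gene GI (AT1G22770), the only one of 14 listed, was at -0.46, AT3G15450 of the senescence and sugar list at 0.33 and AT1G77750, matched as a ribosomal protein, at 0.17.

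Markers of other organs and cell types were few among the measured genes. The root genes PYK10 (AT3G09260) and EXPA7 stood at -0.40 and -0.23, TRY (AT5G53200) of the trichome lineage at -0.42 and CLV3 (AT2G27250) of the shoot meristem at -0.05. No guard cell marker was measured. The anther tapetum markers went both ways: AMS (AT2G16910), a tapetum transcription factor, was at 1.73 and SHT (AT2G19070), a spermidine acyltransferase of the tapetum, at -1.11, with ATA27 (AT1G75940) at -0.37 and AT5G07230 at -0.02. At 12 h AMS and SHT stood at 3.42 and 3.39, ATA27 at 2.83 and AT5G07230 at 0.09. In fas2-2 AMS and in fas1-2 SHT were listed at exactly 0. Ratios hold no level, so how much of each organ or cell type the samples held could not be checked.

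Among the lowest genes, AT2G13150, named bZIP31 among its synonyms, was at -3.92 and stood 0.90 below the next. It was listed at exactly 0 at 12 h and stood at -0.37 in fas1-2 and -0.70 in fas2-2. AT3G44670 followed at -3.02, against 0.65 at 12 h, 4.15 in fas1-2 and 0.31 in fas2-2. The MADS-box gene AGL41 (AT2G26880) was at -2.94 at 6 h, 0.12 at 12 h, 0.08 in fas1-2 and -0.18 in fas2-2. None of the 3 was 2-fold below control on any other array. Beside the 3xHMG-box genes and TOPII given above, the next were AT3G02120 (-2.47), AT5G04960 (-2.41), AT5G55180 (-2.07), AT5G66230 (-2.04), AT5G47920 (-1.94), AT5G55520 (-1.93), AT3G48490 (-1.8), AT3G28790 (-1.79) and AT1G16630 (-1.70). Of these 9 only AT5G55180 was also 2-fold lower at 12 h, at -1.01. AT2G05510, at -1.66 as a gene, rests on 2 probes that disagreed, at -2.93 and -0.38.

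Of the 43 symbol families with at least 5 measured genes, 454 genes in all, 9 had a 2-fold higher member, 4 a 2-fold lower one and 32 neither. Over all genes 1.88% were at least 2-fold higher and 1.01% lower, so a family of few genes may well hold none. The families are therefore not called quieter than the array. The highest median was that of the ATG genes at 0.31, which are among the autophagy genes given above. SDH, the succinate dehydrogenase subunits of the respiratory chain, followed at 0.24. The lowest medians were those of the tubulin families TUA (-0.29, 4 of 5 below 0) and TUB (-0.26, 5 of 5). Some larger families also lay low by small amounts. Of 22 serine carboxypeptidase-like genes (SCPL) 18 lay below 0 with a median of -0.15, of 13 IQD genes, for calmodulin-binding proteins, 11 lay below 0, and all 8 NET genes, for actin-binding proteins of membranes, did. In the IQD family iqd21 (AT3G49260) was at -0.96 and IQD19 (AT4G14750) at -0.85, while IQD23 (AT5G62070) was at 1.12. TRM25 (AT5G62170) and TRM31 (AT5G58630), with the TON1 recruiting motif of microtubule array proteins, were at -0.94 and -0.93. Most of these medians are smaller than the spread between repeated spots.

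**Figure D4:**
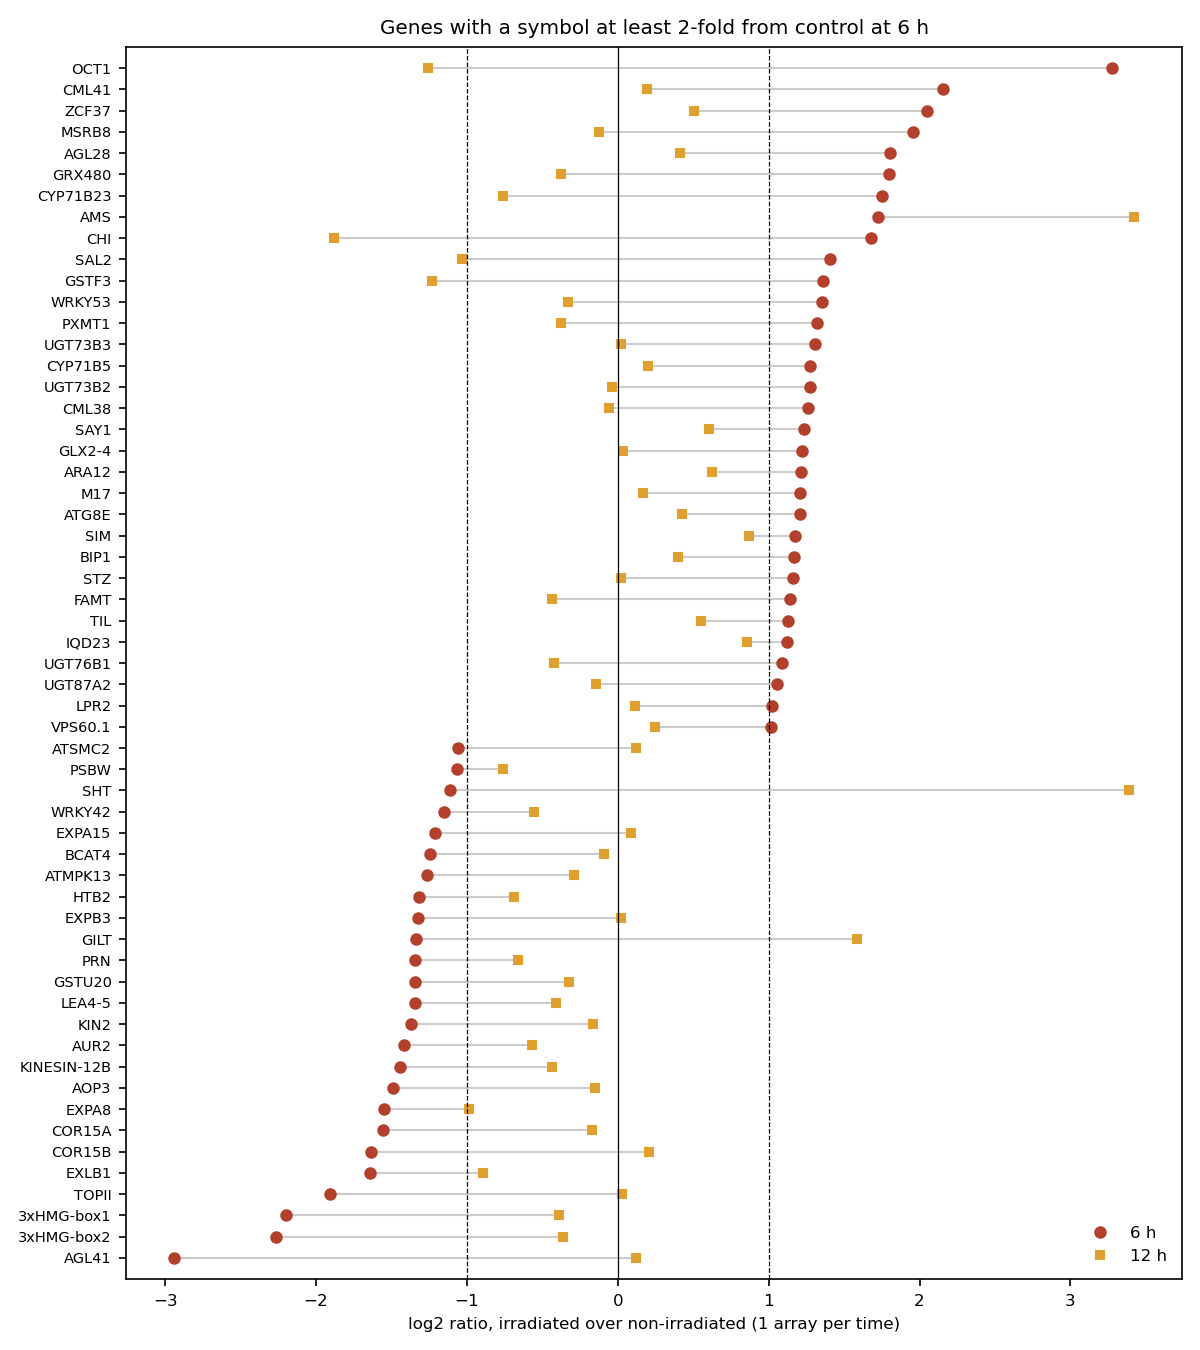
Log2 ratio of irradiated over non-irradiated wild type at 6 h (circles) and 12 h (squares) for the 57 genes with a symbol that were at least 2-fold from control at 6 h, 32 higher and 25 lower; each point is 1 array. AMS, SHT and GILT stand out by their higher values at 12 h, and SIM (1.17 and 0.87) and IQD23 (1.12 and 0.86) lie close at both times.

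Genes that lie next to each other shared extreme values in a few places. Of 3428 pairs of neighbouring protein-coding genes with both members measured, 7 had both at least 2-fold higher, 1 both lower and 1 opposite values. Of all single genes 1.88% were at least 2-fold higher and 1.01% lower. Whether the pairs are more than these shares would give was not tested. The higher pairs were AT1G10040 and AT1G10050 (1.68 and 2.05), AT1G51120 and AT1G51130 (1.45 and 2.37), AT2G38240 and AT2G38250 (1.15 and 1.44), FAMT and AT3G44870 (1.14 and 1.2), AT4G27280 and AT4G27290 (1.06 and 1.91), UGT73B3 and UGT73B2, and IQD23 and AT5G62080 (1.12 and 1.77). The lower pair was COR15B and COR15A. The opposite pair was 3xHMG-box2 at -2.26 beside WRKY53 at 1.35. Pairs that bear the same family name, such as UGT73B3 and UGT73B2, may share sequence, and whether one transcript bound both probes was not tested. By chromosome the share of 2-fold higher genes ran from 1.41% on chromosome 4 to 2.15% on chromosome 1, and that of lower genes from 0.557% on chromosome 1 to 1.4993% on chromosome 2.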

How the data were processed

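RNA was hybridised to Agilent Arabidopsis 2 oligonucleotide arrays with 2 dyes, per the labels, 1 array per condition. The values deposited by the authors were taken as log10 ratios of red over green, the output of Agilent Feature Extraction, which the submitters' processing notes list without a version. Background correction and dye normalization are not given in the sources used here. Deposited values at 6 h ran from -1.49 to 1.51 with a median of -0.0014, and 245 features were at exactly 0.

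A factor of 3.32 turned them into log2 ratios. The platform annotation names 1 gene for 9335 of the 22575 features, more than 1 for 40 and none for 13200, and only the first kind was used. Symbols came from the RefSeq gene list (assembly TAIR10.1), which matched 9317 of the 9335. The mean was taken where several probes shared a gene, as for 79 of the 9253 genes. Counting was tested on simulated data. Python 3.11.15 with pandas 2.3.3 was used.

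No test was run, since 1 array allows none; the number of arrays limits the precision. Lists held 220 loci, 43 of them measured, plus 12 families matched by symbol or synonym; the 5 added groups were chosen after the values were seen. Members and lists were chosen with earlier results of these data known. Named genes are the 30 highest and 30 lowest, list members past 2-fold or else the 4 farthest from 0, and the 2 just inside and outside 2-fold each way; those that bear on a group are given. Genes named beyond this rule (family members, neighbours) were chosen after their values were seen. Sequences and promoter motifs were not analysed here, and 2 symbol families are not reported here.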

Additional observations from a re-analysis of the deposited data

Results flagged for a closer look

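Of the genes that the naming rule or a symbol brought into view, several stood at least 2-fold from control in opposite directions at 6 h and 12 h, on 1 array each, so the difference between the times was not tested. At 12 h, 84 genes (0.908%) were at least 2-fold higher and 69 (0.746%) lower. There were 11 such genes, 8 of them higher at 6 h. Those were OCT1 (3.28 at 6 h and -1.26 at 12 h), AT3G28510 (3.08 and -1.66), AT5G52760 (2.01 and -1.15), AT2G18690 (1.75 and -1.32), CHI (1.68 and -1.88), SAL2 (AT5G64000; 1.41 and -1.03), GSTF3 (1.36 and -1.23) and AT2G25510 (1.0 and -1.55). The 3 lower at 6 h were GILT (AT4G12960; -1.34 and 1.58), SHT (-1.11 and 3.39) and AT2G28960 (-1.0 and 1.23). AT2G25510 and AT2G28960 lie at the threshold at 6 h.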

How the results depend on the processing

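The counts at 6 h, 174 higher and 93 lower, stayed within 1.5 times with the array centred on its median, with the arrays scaled to 1 spread, with the probe farthest from 0 in place of the mean, and without exact zeros. The same held without genes at exactly 0 on an array other than that of 6 h, an alternative added after seeing the data. They were 449 and 326 at 1.5-fold and 38 and 21 at 3-fold. With the sign of the ratio turned, also added after seeing the data, they were 93 and 174. Read as log2 instead of log10, the values gave 1 and 1. Over every feature of the array, named or not, they were 493 and 722, so the balance turned to the lower side. With centring and scaling, the 34 list medians and 121 named genes moved by less than the pooled spot SD of 0.25. Centring moved each value by only 0.0048 and scaling multiplied the 6 h array by 0.9915. No larger move was thus possible, and nothing is read from it. With means in place of medians, 4 lists moved by more: DNA replication to -0.97, mitochondrial stress to 1.1, anther tapetum markers from -0.20 to 0.056 and redox enzymes to 0.35. No paired analysis was possible because each condition had 1 array and no test was run. Without spot intensities, signal over background could not be judged.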

Other observations

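Of the 13240 features without a single gene name, 317 (2.39%) stood 2-fold or more above control at 6 h and 629 (4.75%) as far below it, against 1.89% and 0.996% of the 9335 features with one. Their values ran from -4.95 to 5.02. Which of them are control spots was not determined here. Of the 267 genes past 2-fold at 6 h, 8 were listed at exactly 0 on at least 1 of the other 3 arrays, 4 of the 174 higher (2.30%) and 4 of the 93 lower (4.30%), against 0.476% of all genes.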
